A study of Caenorhabditis elegans with 2 samples.

Results

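The sites of ZFP-2, a C2H2 zinc finger protein of Caenorhabditis elegans, were examined at 10 genes: the heterochronic genes lin-46, lin-66, lin-14, lin-28, lin-29, lin-41, lin-42 and hbl-1, and the paired transcription factor genes myrf-1 and myrf-2. These are 10 of 19973 nuclear protein-coding genes in the annotation. They were picked with the peak lists known, so 4 of them are present because a strong peak lies beside them, and their counts are described without a test. Occupancy was measured by chromatin immunoprecipitation and sequencing (ChIP-seq) of whole hermaphrodite L4 larvae of strain OP534, taken 52 hours after release from L1 starvation arrest that followed bleaching. The strain carries the unc-119(tm4063) III mutation and the integrated transgene wgIs534, which stably expresses ZFP-2 with a C-terminal GFP-FLAG tag. The precipitation used an anti-GFP antibody after sonication, in 1 group of 2 biological replicates. A linked control data set was not analysed here, and whole animals do not show in which tissue a site was occupied.

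Heterochronic genes decide which larval stage a cell behaves as, so that mutants skip or repeat the divisions of a stage. Early in larval life LIN-14, LIN-28 and HBL-1 hold cells in young fates, microRNAs of the lin-4 and let-7 families then lower them, and LIN-29 drives the switch to the adult epidermis after LIN-41 is lowered in turn. MYRF-1 and MYRF-2 are membrane-bound transcription factors that release a DNA-binding fragment by self-cleavage, and they act in larval development, lin-4 transcription and the rewiring of DD motor neurons.

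A site was a peak summit on the ce11 build, from 1000 bp upstream of any annotated 5′ end of a gene to the end of that gene, a span called the gene window. The authors' signal of a peak ranks it within its own list. The thresholded list held 660 peaks, 642 of them nuclear, with signal from 83.8 to 8713 and a median of 117. These were the 660 strongest of 14658 pooled peaks, whose lowest signal was 25.1. The pooled list includes background calls as well as peaks. Replicate 1 had 18200 peaks and replicate 2 had 17770, background calls included, with signals of 38.7 and 49.6 at rank 660. Signals were compared within a list only, and ranks were set side by side between lists.

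Thresholded summits stood in the windows of lin-46, lin-66, myrf-1 and myrf-2, 4 of the 10 genes, against 3.29% of all nuclear protein-coding genes. As the choice of the genes used this list, nothing is read from that difference. The 4 genes held 5 summits, with signals from 87.8 to 164, all within 1000 bp upstream of an annotated 5′ end. The sequence from 50 bp before to 50 bp after each of these 5 summits is shown on the strand of the gene, because these are the sites that put the genes in the list. Capitals mark matches, on either strand, to 8 words of 6 bases that led in an earlier analysis of all thresholded summits. The word ACGCAG overlaps the next word, GACGCA, which in turn overlaps the third, AGACGC. The word ACGCGC overlaps the fifth word, ACACGC. The word GAGCGC stands apart, and the word CGAGAG overlaps the last word, GCGAGA. Overlapping words can fall in 1 run of capitals. The sequences are from the RefSeq copy of ce11.
lin-46 stronger site, chrV:12967958-12968058, + strand: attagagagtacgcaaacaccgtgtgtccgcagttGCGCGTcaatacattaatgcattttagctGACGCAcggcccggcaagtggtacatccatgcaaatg
lin-46 weaker site, chrV:12968158-12968258, + strand: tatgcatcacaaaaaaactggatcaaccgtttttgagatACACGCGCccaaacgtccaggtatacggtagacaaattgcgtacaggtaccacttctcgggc
lin-66 site, chrIV:13887602-13887702, + strand: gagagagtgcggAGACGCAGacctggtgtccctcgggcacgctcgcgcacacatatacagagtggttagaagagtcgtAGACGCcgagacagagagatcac
myrf-1 site, chrII:10502722-10502822, − strand: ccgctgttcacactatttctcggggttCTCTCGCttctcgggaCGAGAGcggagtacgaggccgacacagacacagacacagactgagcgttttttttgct
myrf-2 site, chrX:10188569-10188669, − strand: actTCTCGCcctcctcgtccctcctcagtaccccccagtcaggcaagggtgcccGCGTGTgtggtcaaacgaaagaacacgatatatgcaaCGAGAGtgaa

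All 5 sequences held a match, with 14 matches in total. Overlapping words were counted separately, and the share of all summits with several matches was not counted. At lin-46 the stronger site had ACGCGC and GACGCA, and the weaker had ACACGC and ACGCGC in 1 run of 8 bases. The lin-66 site held 4 matches to the first 3 words, ACGCAG and its overlaps, 3 of them overlapping in a single run. Both myrf genes had the other kind of word: myrf-1 held 3 matches to CGAGAG and GCGAGA, and myrf-2 held 1 match to each of these as well as 1 to ACACGC. The word GAGCGC stood at none of the 5. Any of the 8 words was present in 65.6% of the 642 thresholded summits, in 12.5% of 1284 positions lying 500 bp to either side of those summits, and in 14.0% of 29773 stretches of the same length directly upstream of protein-coding 5′ ends. The words were chosen on these same summits, so the matches describe the sites and do not single them out. Base composition moved with them: the 5 sites were 46.5 to 58.4% G and C, thresholded summits had a median of 50.5%, the flanking positions 36.1% and the upstream stretches 32.7%. The part of base composition in the word counts was not tested.

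lin-46 had the strongest summit of the 10 genes in the pooled list and in each replicate. Its protein resembles gephyrin and bacterial MoeA, acts downstream of LIN-28 and opposes HBL-1. The gene (WBGene00003031) lies on V from 12968855 to 12970730, + strand, with a single annotated 5′ end. The stronger summit, at 12968008 and 847 bp upstream of lin-46, had pooled signal 164 and rank 184, with signal 73.9 and rank 180 in replicate 1 and signal 93.2 and rank 194 in replicate 2. The weaker, at 12968208 and 647 bp upstream, had pooled signal 104 and rank 423, with signal 40.8 and rank 588 in replicate 1 and signal 64.9 and rank 355 in replicate 2. Each replicate thus ranked both summits among its 660 strongest, and its own summits lay at most 4 bp from the pooled ones.

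The 5′ end nearest to both lin-46 summits is not that of lin-46. R186.8, annotated by RefSeq as the mitochondrial ribosomal protein L33, runs away from lin-46 on the other strand, and its 5′ end at 12967982 lies 873 bp from that of lin-46. The stronger summit stood 26 bp upstream of R186.8 and the weaker 226 bp upstream. Another gene, R186.3, annotated as an ADP-ribosylation factor-related protein, has its 5′ end 798 bp from the stronger summit, and both summits are in its promoter window (1000 bp upstream to 200 bp downstream of a 5′ end). The summits lie between R186.8 and lin-46. R186.3, from 12966003 to 12967210 on the strand of R186.8, lies beyond R186.8, whose body separates it from the summits. The peak lists do not tell which of the 3 genes a summit belongs to, and the lin-46 count is lost when a summit is given only to its nearest 5′ end.

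lin-66 encodes a protein that lowers LIN-28 and so lets cells leave early larval fates. The gene (WBGene00001562) lies on IV from 13888079 to 13893986, + strand. Its thresholded summit at 13887652, 427 bp upstream of the first 5′ end, had pooled signal 91.8 and rank 547. Replicate 1 gave signal 40.9 and rank 587 there, replicate 2 gave signal 51.0 and rank 614, and their summits were 31 and 35 bp from the pooled one but 4 bp from each other. The nearest 5′ end was that of lin-66, and no other protein-coding gene had the summit in its promoter window. Beyond it, 5 weaker pooled summits with signals from 29.7 to 45.7 followed, and none of them was held by both replicates.

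myrf-1 (WBGene00004134, II from 10496987 to 10502541, − strand) had the weakest thresholded summit of the 4 genes. The summit at 10502772, 231 bp upstream of the single 5′ end, had pooled signal 87.8 and rank 592. Replicate 2 placed it at signal 60.9 and rank 426, 3 bp from the pooled position. Replicate 1 placed it lower, at signal 31.9 and rank 1021, with its summit 84 bp away. In replicate 1 the site was therefore outside the 660 strongest, and the summits of the replicates lay 81 bp apart. Of the 2 other pooled summits of myrf-1, 1 was in replicate 2 only and 1 in neither replicate.

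myrf-2 (WBGene00008999, X from 10180940 to 10194377, − strand) has 10 annotated 5′ ends, and its thresholded summit stood at an internal one. The summit at 10188619 had pooled signal 101 and rank 443, with signal 38.6 and rank 662 in replicate 1 and signal 65.4 and rank 348 in replicate 2. It lay 149 bp upstream of the 5′ end at 10188470, where 1 of 11 transcripts starts, and 178 and 189 bp upstream of 2 further ends. The same position is in an intron of 5 longer transcripts, 5758 bp downstream of the outermost 5′ end. Replicate 1 missed its 660 strongest by 2 ranks, while both replicate summits lay within 6 bp of the pooled one. A weaker pooled summit at 10194622, 245 bp upstream of the outermost 5′ end, was also held by both replicates, with pooled signal 52.6 and rank 1755, and with ranks 5329 in replicate 1 and 2326 in replicate 2. The signal was thus higher at the internal than at the outermost start in the pooled list and in both replicates.

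**Figure D1:**
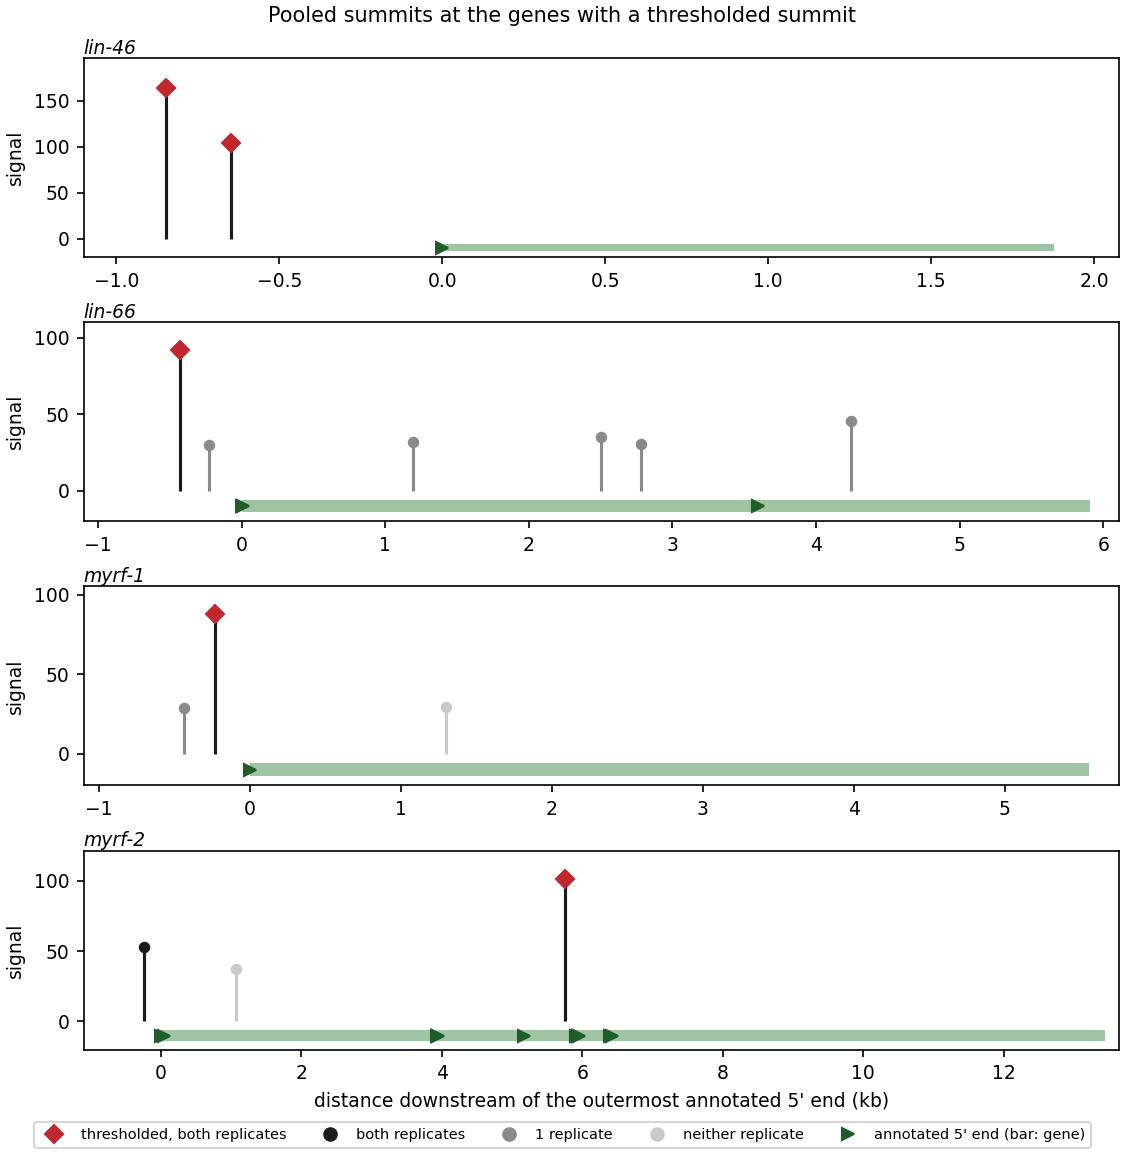
Pooled ZFP-2 summits at lin-46, lin-66, myrf-1 and myrf-2. The x axis is the distance downstream of the outermost annotated 5′ end in kb, the y axis the authors' pooled signal, and each stem is 1 summit; red diamonds are thresholded summits, black, dark grey and light grey dots those held by both, 1 or neither replicate, the green bar is the gene and the arrowheads its 5′ ends. The thresholded summits of lin-46, lin-66 and myrf-1 lie upstream of the gene, that of myrf-2 lies 5758 bp inside it next to internal starts.

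The other 6 genes had no thresholded summit. The nearest thresholded summit to the body of lin-28 was 16047 bp away, that of lin-29 25496 bp, that of lin-41 27098 bp, that of lin-42 63104 bp and that of lin-14 117623 bp. For hbl-1 it was 13557 bp, and the summit was that of puf-9. On either side of the threshold stood myrf-1, with signal 87.8 and rank 592, and lin-28, with signal 76.5 and rank 801. Between the threshold and that lin-28 site the pooled list held 140 nuclear summits.

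lin-28 encodes an RNA-binding protein that blocks processing of the let-7 precursor. The gene (WBGene00003014) lies on I from 8407630 to 8410804, − strand, and had 2 pooled summits, each held by both replicates. The stronger, at 8409948, stood 28 bp upstream of an internal 5′ end at 8409920, which lies 884 bp inside the gene. It had signal 29.4 and rank 1258 in replicate 1 and signal 49.0 and rank 677 in replicate 2. The weaker, at 8411268 and 464 bp upstream of the outer 5′ end, had pooled signal 65.2 and rank 1122, with rank 3305 in replicate 1 and rank 965 in replicate 2. Both lin-28 sites ranked higher in replicate 2 than in replicate 1, and the order of the 2 sites was the same in each. Replicate 2 also had a summit at 8411069, 265 bp upstream of the outer 5′ end, with no pooled summit within 100 bp. Its signal of 47.8 and rank of 727 were close to those of the internal site in replicate 2.

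lin-14, the nuclear factor of the earliest larval fates and the first known microRNA target, had the most summits and none that was strong. Its window, 21312 bp, was also the longest of the 10. Per 10 kb it held 6.10 pooled summits, fewer than lin-66 (8.69) and lin-46 (6.95) and more than the other genes. The gene (WBGene00003003, X from 11465560 to 11485871, + strand) held 13 pooled summits with signals from 25.4 to 69.8. Of these 9 lay in introns and 7 were held by both replicates. The strongest, at 11473326 with pooled rank 972, had signal 34.9 and rank 832 in replicate 1, and no summit of replicate 2 within 100 bp. Replicate 2 had its best lin-14 summit 151 bp from that of replicate 1, with rank 1129, next to a second pooled summit at 11473541 of signal 53.8. The replicates therefore put the highest point of the same intron stretch at different places. A summit at 11467480 (pooled signal 61.9) ranked 1036 in replicate 1 and 1438 in replicate 2, and the promoter summit 162 bp upstream of the first 5′ end (pooled signal 48.7) ranked 2986 in replicate 1 and 5769 in replicate 2.

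lin-42, the worm relative of the circadian gene period, and lin-29, the zinc finger factor of the larval-to-adult switch, showed weak summits inside long genes. lin-42 (WBGene00018572, II from 1233236 to 1252359, − strand) had 7 pooled summits with signals from 25.2 to 60.1, 6 of them intronic and 3 held by both replicates. Its strongest, at 1247061 with pooled rank 1351, ranked 2868 in replicate 1 and 1972 in replicate 2, and its nearest 5′ end was 3026 bp away. The pooled summit at 1238082 was held by replicate 1 only, at 1238023 (rank 5988). Replicate 2 had a summit 56 bp from that replicate 1 summit, at 1237967 (rank 14206). lin-29 (WBGene00003015, II from 11917642 to 11935343, − strand) had 4 pooled summits with signals from 25.8 to 58.5, 1 of them held by both replicates. The strongest lin-29 summit, at 11917783 with pooled rank 1424, lay in the 3′ UTR, 1270 bp from the nearest 5′ end, which belongs to the neighbouring high mobility group gene hmg-12. Replicate 2 had it at rank 929 and replicate 1 had no summit within 100 bp. Both replicates did have a weaker summit in the same 3′ UTR, 1 bp apart and more than 100 bp from the pooled one. It stood at 11917909 in replicate 1 (signal 16.6, rank 7436) and at 11917908 in replicate 2 (signal 24.7, rank 4465). The best lin-29 summits of the replicates were 14578 bp apart.

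Sequence at the strongest lin-14 and lin-42 sites is shown for comparison with the thresholded sites, again with word matches in capitals.
lin-14 site, chrX:11473276-11473376, + strand: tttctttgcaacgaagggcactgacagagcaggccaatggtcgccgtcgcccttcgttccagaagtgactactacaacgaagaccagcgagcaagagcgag
lin-42 site, chrII:1247011-1247111, − strand: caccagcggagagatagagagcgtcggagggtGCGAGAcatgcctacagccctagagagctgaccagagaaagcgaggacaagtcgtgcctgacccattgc
The lin-14 site, at 55.4% G and C, had no match, and the lin-42 site, at 59.4%, had 1, to GCGAGA. The strongest lin-28 and lin-29 sites had no match either, at 48.5 and 39.6% G and C. Among all 13998 pooled nuclear summits below the threshold, 21.3% held any of the words. The words were chosen on the thresholded summits, so nothing is read from the difference between thresholded and weaker sites. The part of base composition was not tested here either.

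lin-41 and hbl-1 had no pooled summit. LIN-41 is a TRIM-NHL regulator of messenger RNAs and a let-7 target, and HBL-1 is a zinc finger factor related to Hunchback. lin-41 (WBGene00003026, I from 9334800 to 9342496, − strand) had 2 summits in replicate 1, at 9341386 in a coding exon with signal 21.5 and rank 3185, and at 9339791 with signal 13.0 and rank 14516. hbl-1 (WBGene00001824, X from 5822142 to 5827755, + strand) had 1 summit in replicate 1, at 5823598 in a coding exon and 466 bp downstream of a 5′ end, with signal 26.5 and rank 1620. Replicate 2 had no summit in either window. These 3 calls thus appeared in a single replicate list, which, like the pooled list, includes background calls by its construction.

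**Figure D2:**
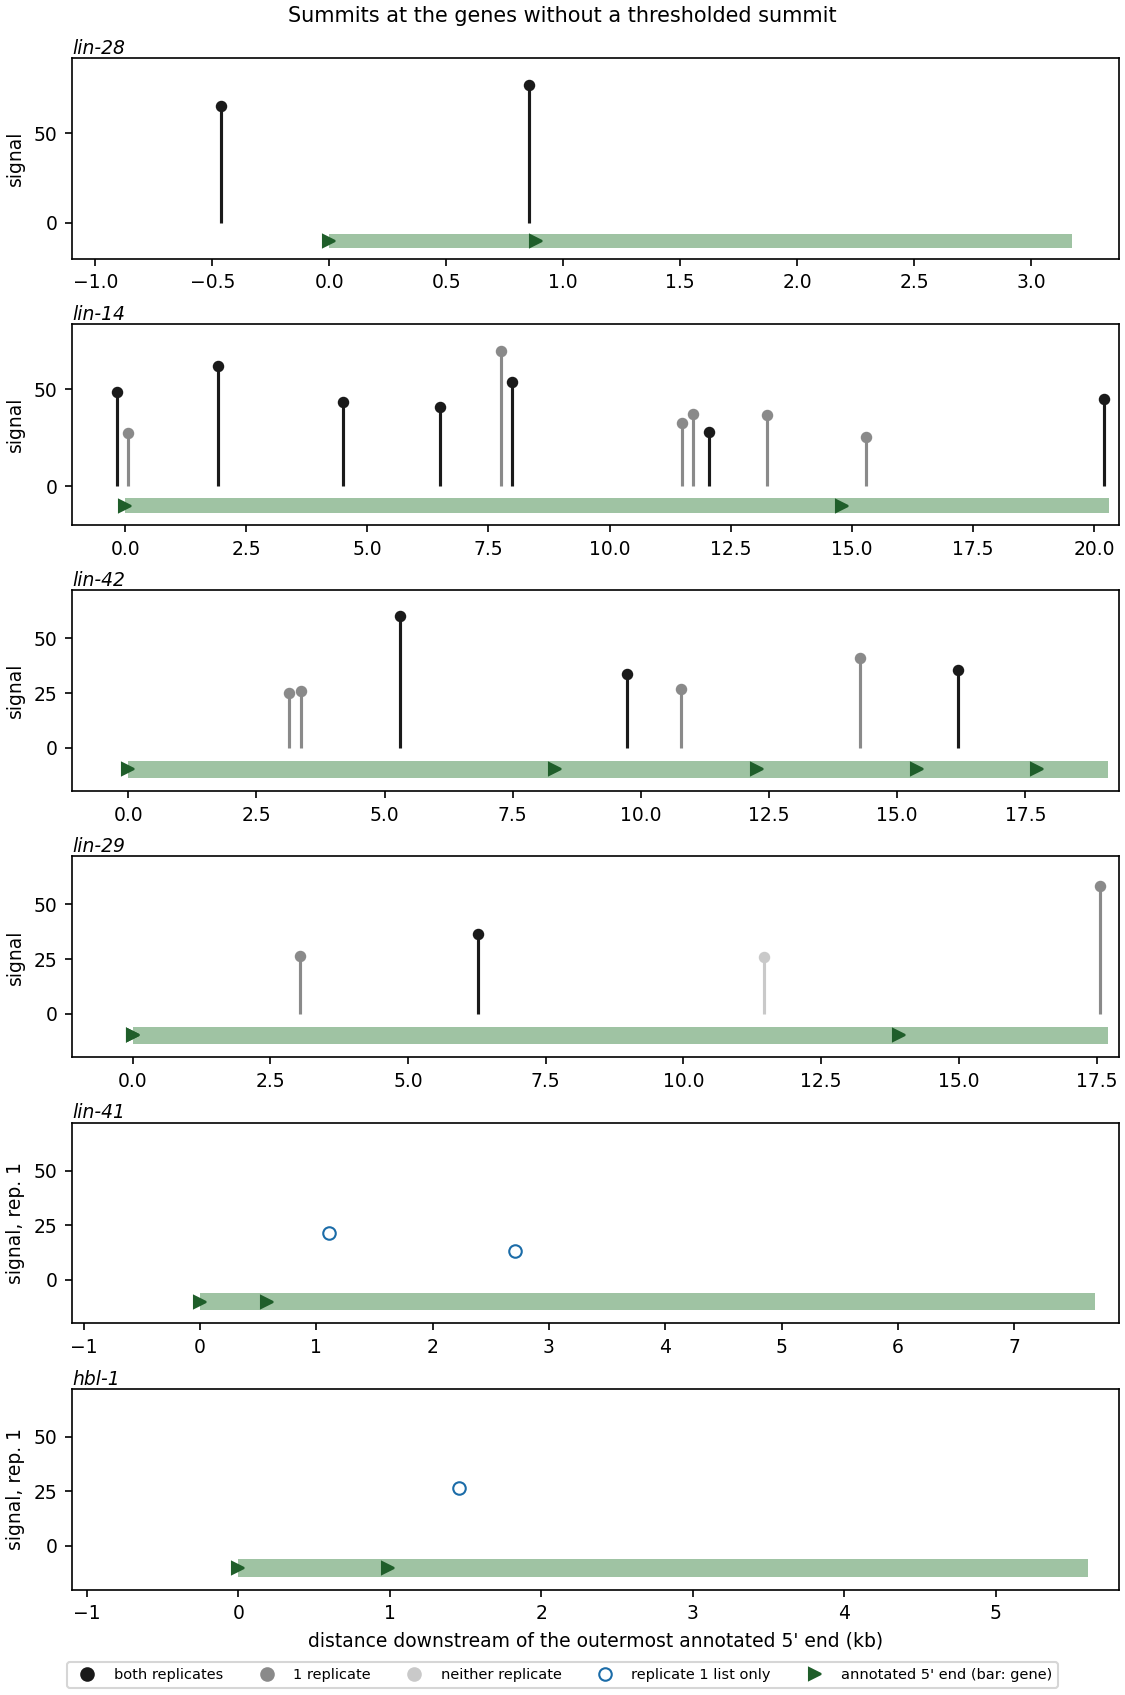
Summits at lin-28, lin-14, lin-42, lin-29, lin-41 and hbl-1. The x axis is the distance downstream of the outermost annotated 5′ end in kb and the y axis the authors' signal, pooled for the first 4 genes and of replicate 1 for lin-41 and hbl-1 (open circles); black, dark grey and light grey stems are summits held by both, 1 or neither replicate. lin-14 has the most summits, 13, in the longest window, with none above 69.8. lin-28 has summits 28 bp and 464 bp upstream of a start.

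By strongest pooled summit the order was lin-46 (rank 184), myrf-2 (443), lin-66 (547), myrf-1 (592), lin-28 (801), lin-14 (972), lin-42 (1351) and lin-29 (1424). All 8 lay in the top 9.71% of the pooled list, and lin-46 in the top 1.26%. Each is the highest of all summits in its window, and 4 of the genes are present because of a thresholded peak. The share of all genes with a summit at such ranks was not counted, so these values are descriptions. lin-46 came first in both replicates. The replicates ordered the next genes differently: replicate 1 had lin-66 (587), myrf-2 (662), lin-14 (832) and myrf-1 (1021), and replicate 2 had myrf-2 (348), myrf-1 (426), lin-66 (614) and lin-28 (677). myrf-2 stood ahead of myrf-1 in both, while lin-66 changed places with the myrf genes and lin-28 with lin-14. Replicate 1 had lin-46 and lin-66 alone among its 660 strongest peaks, 2 of the 10 genes against 3.31% of all nuclear protein-coding genes. Replicate 2 had lin-46, lin-66, myrf-1 and myrf-2, 4 of the 10 genes against 3.30%. The pooled list was made from the same 2 replicates, so neither replicate is independent of the choice of genes.

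**Figure D3:**
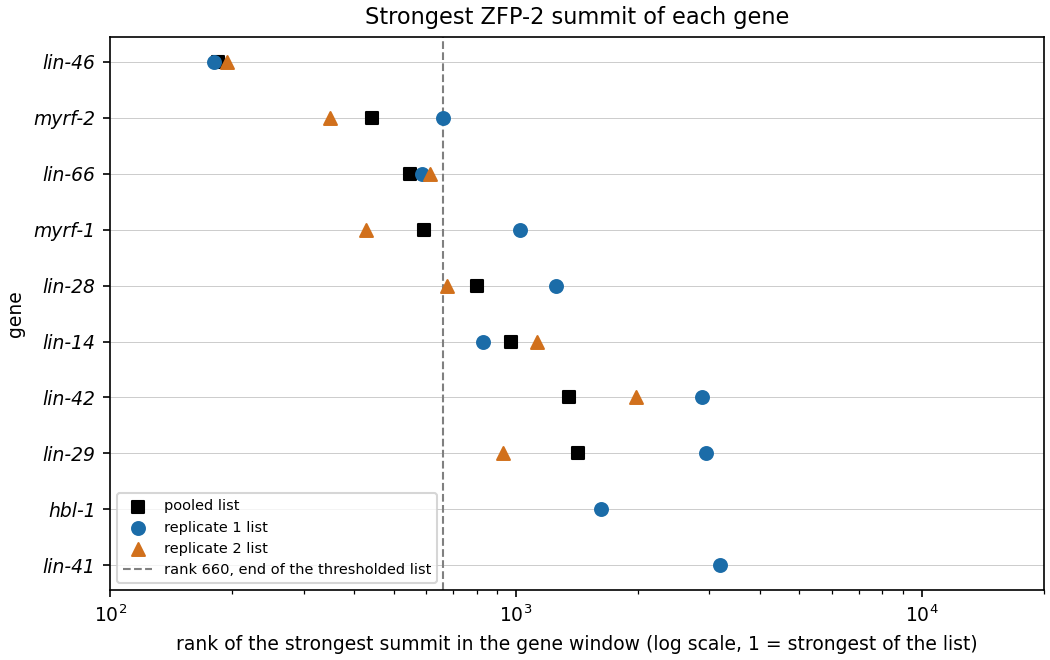
Rank of the strongest ZFP-2 summit in each gene window, on a log axis where 1 is the strongest peak of a list. Squares are the pooled list, circles replicate 1, triangles replicate 2, and the dashed line marks rank 660, the end of the thresholded list. The 3 lists place lin-46 together near rank 184, while lin-41 and hbl-1 have a point for replicate 1 only.

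In the pooled list 8 of the 10 genes held a summit, against 40.5% of all nuclear protein-coding genes. The windows of these genes are long, with a median of 7802 bp against 3027 bp for all. Among genes with a window of at least 10000 bp, which include myrf-2, lin-14, lin-29 and lin-42, 80.2% had a pooled summit and 6.57% a thresholded one. Of the 4 long member genes all had a pooled summit and 1, myrf-2, a thresholded one. The pooled presence of lin-14, lin-29 and lin-42 is thus what most genes of that length showed. In replicate 1 all 10 genes had a summit, against 46.3% of all genes, and in replicate 2 there were 8, against 46.4%. Counted by length, the windows of the 10 genes held 3.62 pooled summits per 10 kb and the nuclear genome 1.46, with 4.26 against 1.81 in replicate 1 and 4.17 against 1.77 in replicate 2. These counts include the sites for which the genes were chosen. The genome figures also cover sequence outside gene windows. The density over the windows of all genes was not counted, so nothing is read from the differences.

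The 40 pooled summits had a median signal of 37.4, against 32.2 for all pooled peaks, and 13 were above 50. They include the sites for which the genes were chosen. Introns held 25 (62.5%), sequence upstream of the gene 9, coding exons 3, 3′ UTRs 2 and a 5′ UTR 1. The intron count includes summits just upstream of internal starts of myrf-2 and lin-28. The nearest 5′ end belonged to the same gene in 36 of 40, the exceptions being both lin-46 summits, 1 of lin-29 and 1 of lin-14. Signals above 50, places and nearest 5′ ends were not counted over all pooled summits. Of the 31 annotated 5′ ends of the 10 genes, 9 (29.0%) had a pooled summit within 250 bp, against 12.7% of all protein-coding 5′ ends. Several of the 9 share a summit, since the starts of myrf-2 and of lin-66 lie close together. In replicate 1 the number was 6 of 31, against 14.1% of all, and in replicate 2 it was 10 of 31, against 13.8%. The 9 include the start of myrf-1 and internal starts of myrf-2, counted through thresholded summits for which these genes were chosen. Nothing is read from these differences.

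Both replicates held all 5 thresholded summits within 100 bp, against 94.5% of all 642 nuclear thresholded summits. The list was thresholded by irreproducible discovery rate, a measure of agreement between replicate peak lists, so this count is not separate support. With replicate calls limited to the 660 strongest of each, 3 of the 5 were held by both (both lin-46 summits and that of lin-66), against 62.9%. Of the 40 pooled summits 19 (47.5%) were held by both, against 30.4% of all 14640 nuclear pooled summits. Replicate 1 held 27 of the 40, against 54.8%, and replicate 2 held 29, against 63.6%. Below the threshold 14 of 35 (40.0%) were held by both, 7 of these at lin-14, against 27.4% of all nuclear pooled summits there. Of the 19 shared sites 13 ranked higher in replicate 2 than in replicate 1, and that share was not counted over all shared pooled sites. Across these 19 sites Spearman's rho between the replicate signals was 0.79, and across all 4444 shared pooled sites it was 0.56. The 19 include the 5 thresholded summits for which the genes were chosen, and sites within a library share its depth. Both values are therefore descriptions, and nothing is read from their difference.

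**Figure D4:**
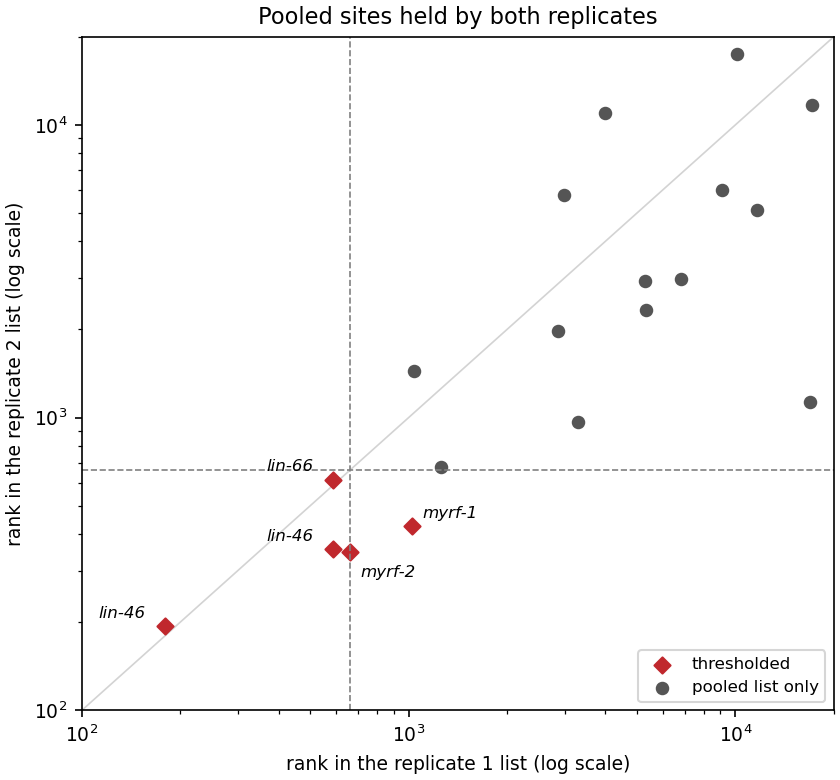
Ranks of the 19 pooled sites held by both replicates, with the replicate 1 rank on the x axis and the replicate 2 rank on the y axis, both on log scales. Red diamonds are the 5 thresholded sites, grey dots the others, the diagonal marks equal ranks and dashed lines mark rank 660. The stronger lin-46 site lies on the diagonal, and myrf-1 and myrf-2 lie below it, at 1021 against 426 and at 662 against 348.

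Other genes of larval timing and molting, listed with earlier results of these data known, included stronger sites. Of 21 further protein-coding genes 3 had a thresholded summit, against 3.29% of all genes. A pooled summit stood at 19 of them, against 40.5% of all genes and 80.2% of those with a window of at least 10000 bp. The windows of the 21 genes ran from 3901 bp (mlt-8) to 31968 bp (daf-12), so neither pooled share is matched for length. puf-9, a Pumilio-family gene that represses hbl-1 through its 3′ UTR, had a far higher signal than any of the 10 genes, 3662 at rank 6, with ranks 9 in replicate 1 and 6 in replicate 2 and the summit 280 bp upstream. nhl-2, a TRIM-NHL cofactor of microRNA silencing, had signal 1353 at rank 31, 847 bp upstream, although the nearest 5′ end, 576 bp away, was that of tag-340. ain-1, a GW182-type microRNA effector, had signal 126 at rank 286, and the summit stood 982 bp upstream. All 3 were among the 660 strongest in each replicate.

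Of the genes of this list without a thresholded summit the highest were the nuclear receptor gene daf-12 (signal 76.3, rank 809), the molting gene mlt-10 (71.4, rank 926), sea-2 (65.7, rank 1109) and the let-7 family gene mir-241 (65.4, rank 1117). daf-12 and mlt-10 ranked 524 and 655 in replicate 2, inside its 660 strongest, and at 1424 and 3926 at best in replicate 1. None of the 6 RNA genes of the list (let-7, lin-4, mir-48, mir-84, mir-241 and lep-5) had a thresholded summit, and 3 had a pooled one. These were mir-241, lin-4 (signal 56.8, rank 1503) and mir-48 (signal 37.9, rank 4400). Of these, lin-4 and mir-48 were named after their values were seen. The share of all RNA genes with a summit was not counted, so the RNA gene counts are descriptions. The mir-241 summit, at 14366789, was held by replicate 2 only (rank 1016), and replicate 1 had its own at 14366930 (rank 2793). The mir-48 summit was also held by replicate 2 only (rank 1226), and replicate 1 had none in the mir-48 window. The lin-4 summit, 346 bp upstream, ranked 1269 in replicate 2 and 16368 in replicate 1, near the end of the replicate 1 list.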

How the data were processed

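ChIP-seq of GFP-tagged ZFP-2 in L4 larvae was deposited as peak lists on ce10 and ce11, and the ce11 lists were used: 1 per replicate, 1 pooled and 1 thresholded by irreproducible discovery rate. The deposited signal of each peak is the authors' value, per the file columns, and served to rank peaks within a list. Aligner, peak caller and threshold: not given in the sources used here. The lists hold no read depth, so counting error cannot be given. Summits came from the deposited offset. Genes and 5′ ends came from Ensembl release 115, whose chromosomes match ce11 in length, and RNA gene names and sequences from RefSeq. Summits were matched between lists within 100 bp. The 10 genes, the further genes and the words were chosen with earlier results of these data known, so no test was run. All 10 genes are named, with genes whose nearest 5′ end or promoter window holds a described summit, and of the further list those with a thresholded summit plus 4 by signal; its other RNA genes were named after their values were seen. Alternatives covered windows, matching, a stricter threshold and each replicate alone. Counting was tested on simulated data first. Python 3.11.15, numpy 2.4.6, pandas 2.3.3 and matplotlib 3.10.9 were used.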

Additional observations from a re-analysis of the deposited data

How the results depend on the processing

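Of 47 values under other settings, 31 stayed within 1.5 times the reported count or within the interval of the reported share. The 330 strongest thresholded peaks left lin-46 alone, with 1 of the 10 genes and 1 summit, and 1.75% of all genes. With each replicate alone the 10 genes gave 2 to 4 with a summit and 3 to 5 summits; without replicate 2, myrf-1 and myrf-2 were lost, and without replicate 1 the same 4 genes were found. The further list then gave 3 to 5 genes, daf-12 and mlt-10 being added without replicate 1, and all genes 3.30 to 3.31%; single lists held 46 to 47 summits at the 10 genes, against 40 in the pooled list. A window of 500 bp upstream lost lin-46, giving 3 summits, 1 gene of the further list (puf-9) and 2.72% of all genes. Giving each summit to its nearest 5′ end also lost lin-46, with 3 summits and 2.26% of all genes. The share of all genes was 4.09% with 2000 bp upstream and 2.79% with promoter windows only, which held 13 of the pooled summits of the 10 genes. Pooled summits held by both replicates numbered 30 when peaks had only to overlap by 1 bp, and thresholded ones 3 with the 660 strongest of each replicate. Settings for the further list, and leaving out summits within 250 bp of a stronger one (4 genes, 4 summits), were chosen after seeing the data. No paired analysis was possible because the design holds a single group. Read depth is unknown and the linked control was not analysed here, so low calls cannot be told from background.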

Other observations

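The 2 lin-46 summits lie 200 bp apart, and the thresholded or pooled summits of 2 other genes have close neighbours too: 199 bp at lin-66 (signals 91.8 and 29.7) and 202 bp at myrf-1 (87.8 and 28.9). In all 4 lists the smallest gap between adjacent summits was 199 bp. Gaps of 195 to 205 bp numbered 437 of 14634 in the pooled list and 15 of 636 in the thresholded list, and gaps of 206 to 216 bp numbered 239 and 6. No gap was under 195 bp in any list. The count of 5 thresholded summits at the 10 genes therefore includes a pair 1 bp above the smallest spacing in the lists, and the weaker lin-46 peak overlaps the stronger, which was deposited with a width of 125 bp against the usual 436 bp.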
